A study of Mus musculus with 18 samples.

Results

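The 10 genes described here encode the core of the mouse microRNA (miRNA) machinery: the Argonautes Ago1, Ago2, Ago3 and Ago4, the GW182 proteins Tnrc6a, Tnrc6b and Tnrc6c, and the processing factors Dgcr8, Drosha and Dicer1. They were chosen by function and symbol, with earlier results of these data known, and each symbol matched exactly 1 of the 51467 genes counted. All 10 passed the filter on low counts (3 or more CPM, a library's counts scaled to 1000000, for 3 or more libraries). Ago4 did so through few libraries, most of them wild type. Their transcripts were followed through polysome gradients of mouse ESCs (the embryonic stem cell line V6.5). These were wild type (WT) or had lost Ddx6 by knockout (Ddx6 KO), and all were grown in serum with LIF and 2i and treated with 100 ug/ml cycloheximide for 2 minutes to hold ribosomes in place. DDX6 is an RNA helicase that binds miRNA effector complexes and takes part in the repression of translation. Each gradient gave a monosome, a low polysome (2 to 4 ribosomes) and a high polysome (4 or more ribosomes) library of 3′ end reads, with 3 gradients per genotype and 18 libraries in 6 groups of 3. The KO was made with CRISPR-Cas9 and is represented by 2 clones, with KO gradient 1 from clone 1 and KO gradients 2 and 3 from clone 2, so that clone and gradient cannot be told apart for clone 1.

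In this pathway, DROSHA with its partner DGCR8 cuts primary transcripts in the nucleus, and DICER1 cuts the resulting hairpins in the cytoplasm. An Argonaute protein then holds the mature miRNA and pairs its seed with target mRNAs, and a TNRC6 protein bound to Argonaute recruits the deadenylases and decapping factors that lower translation and stability, with DDX6 among the proteins reached through this chain. The abundant ESC miRNAs of the miR-290 and miR-302 clusters share a seed and are called the ESCC (ESC-specific cell cycle-regulating) miRNAs. The miRNAs were not measured in these libraries. Their mature sequences from RefSeq (GRCm38.p6) are shown because several of the 10 transcripts carry matches to their seed, the bases 2 to 8, printed in capitals.
mmu-miR-291a-3p: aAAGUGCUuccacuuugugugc
mmu-miR-294-3p: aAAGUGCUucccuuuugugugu
mmu-miR-295-3p: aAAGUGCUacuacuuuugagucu
mmu-miR-302b-3p: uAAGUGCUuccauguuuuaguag
mmu-miR-302d-3p: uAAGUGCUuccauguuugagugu

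The annotated 3′ UTRs (Gencode M21, GRCm38) were searched on the transcript strand for the 8mer AGCACTTA and, outside such 8mers, for the 7mers AGCACTT and GCACTTA. Ago3 held 2 8mers and 1 match to AGCACTT in a 3′ UTR of 12742 bases. Tnrc6b held 2 matches to AGCACTT, Tnrc6c held 1, Ago1 held 2 matches to GCACTTA and Dicer1 held 1. No match stood in the annotated 3′ UTRs of Ago2, Ago4, Tnrc6a, Dgcr8 or Drosha. Among the 11632 tested genes with an annotated 3′ UTR, 3.21% held the 8mer and 18.6% held any of these matches, while the median 3′ UTR was 949 bases over those genes and 3766.5 bases over the 10. All matches in Ago3, Tnrc6b and Tnrc6c are shown, in capitals. These transcripts were picked because they were called in KO libraries, in different directions, though the Ago3 calls stood in only 1 of 6 fits without 1 gradient. Ago2, Ago4, Tnrc6a and Dgcr8 were also called in KO libraries and held no match, and the matches of Ago1 and Dicer1 are not printed. A link between matches and KO changes was not tested. No check for conservation or repeats was made, whereas the study took its ESCC targets from conserved TargetScan predictions. All printed matches lie within a single exon, in the 3′ UTR. The Ago3 8mers are at chr4:126338300-126338329 and chr4:126335504-126335533 and its 7mer at chr4:126341681-126341709, on the minus strand, the Tnrc6b sites at chr15:80931317-80931345 and chr15:80935707-80935735 on the plus strand, and the Tnrc6c site at chr11:117762123-117762151 on the plus strand.
Ago3 8mer 1: actttaattgcAGCACTTAagaggcagagg
Ago3 8mer 2: caaatgttaagAGCACTTAttgtgctgtca
Ago3 7mer: caggcggtgtgAGCACTTggagcccagcc
Tnrc6b 7mer 1: gggaacatgctAGCACTTgtgtgatatcc
Tnrc6b 7mer 2: ccttttatcccAGCACTTgagaggcagaa
Tnrc6c 7mer: gcggccggccgAGCACTTggacgtggtgg

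Libraries held 2543617 to 11474550 gene counts, with the WT monosome libraries the shallowest. Levels are given as CPM after TMM scaling, so each is relative to the other transcripts of its library. Because reads come from transcript 3′ ends, levels were not divided by length and can be set side by side between genes. Ddx6 itself stood between 143 and 212 CPM in WT libraries, at 55.3 to 82.7 CPM in the 3 libraries of clone 1, and between 9.68 and 26.7 CPM in clone 2. A 3′ end count reads transcript level and not the edited site. The 8 ESC markers summed to 1800 to 3350 CPM in WT and 1740 to 3190 CPM in KO libraries. Fibroblast, primitive endoderm and trophectoderm markers each summed to at most 11.1 CPM, and Col3a1, which marks fibroblasts, was at 0 throughout. The 4 primed epiblast markers summed to 103 to 149 CPM in WT and 32.7 to 80.4 CPM in KO libraries, with Fgf5 at 0, and the 3 neural markers to 26.1 to 42.9 and 25.1 to 68.6 CPM. The part of these markers in the results was not tested.

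Ago2, the Argonaute able to cut its targets, was the most counted of the 10 genes in every group. In the WT monosome Ago2 stood at 240 ± 6.67 CPM (mean ± SD, n = 3 here and below). Dgcr8 (68.5 ± 2.19), Ago1 (68.4 ± 3.97) and Tnrc6a (64.7 ± 4.44) followed and did not differ beyond their spread. Below them came Drosha at 44.4 ± 3.93, Tnrc6c at 26.4 ± 3.69, Dicer1 at 17.7 ± 3.32 and Tnrc6b at 13 ± 2.06 CPM, the last 2 within their spread. Ago3 at 6.90 ± 2.88 and Ago4 at 5.08 ± 1.84 CPM were the lowest and also overlapped. Ago4 rested on 8 to 38 counts per library and Ago3 on 9 to 357, so their values carry the most counting error. Ago4 reached 3 CPM in 3 WT monosome and 2 WT low polysome libraries. In KO it did so in 1 monosome and 1 low polysome library, and in 0 high polysome libraries of either genotype. It passed the filter mainly through groups where it was higher. Its lower calls below, in KO and in the WT high polysome, are therefore not independent of the filter. Both enter the counts of lower genes.

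**Figure D1:**
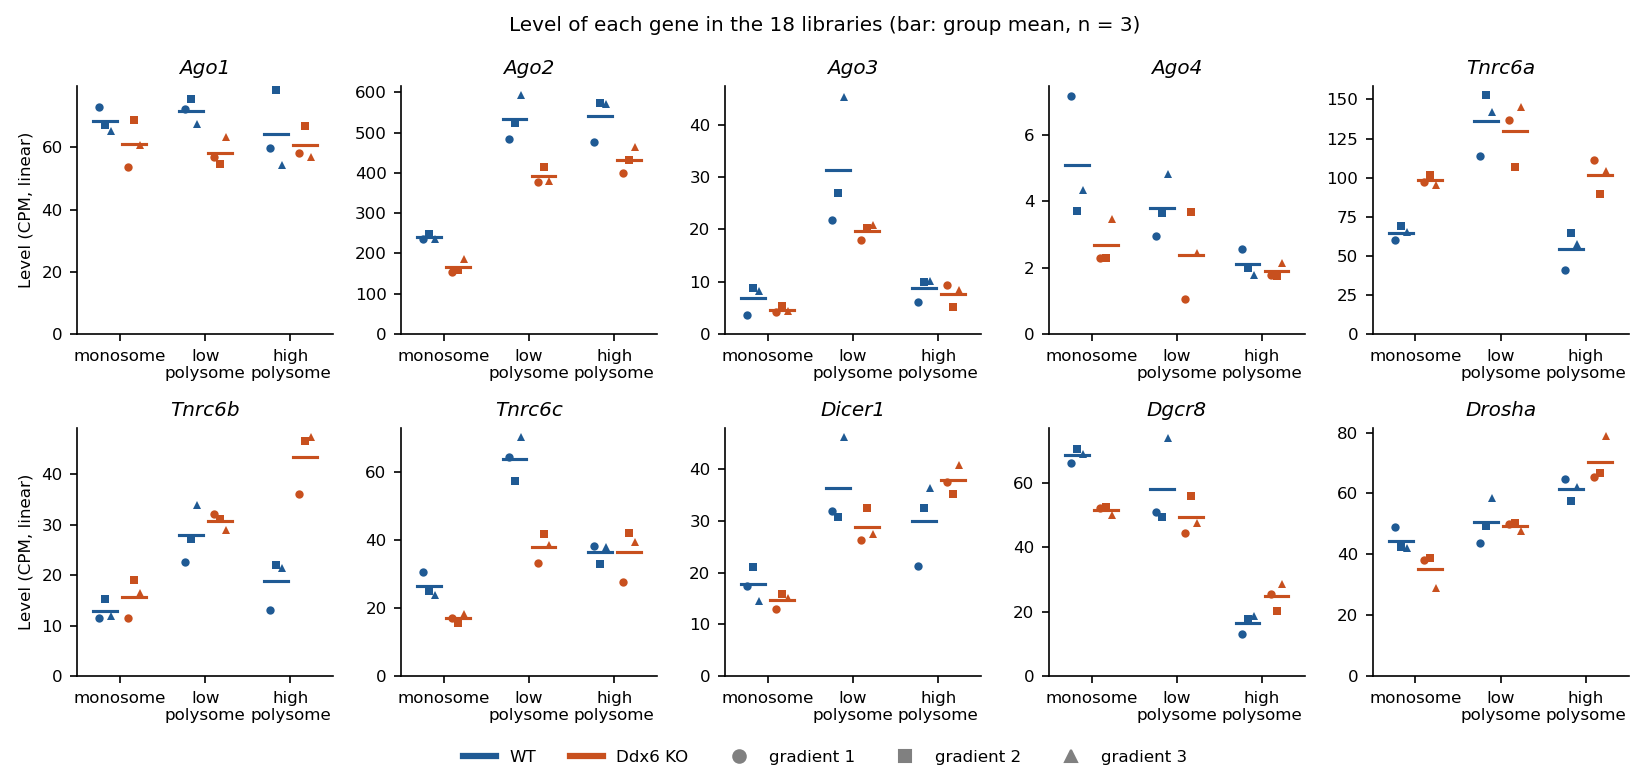
Level of each gene (CPM, linear axis from 0, scale set per gene) by fraction in WT (blue) and Ddx6 KO (orange) ESCs, with 1 point per gradient (circle, square and triangle for gradients 1 to 3) and a bar at the mean of 3. The KO points of Ago2 lie below the WT points in every fraction, those of Tnrc6a above them in the monosome and high polysome, and those of Tnrc6c below them in the monosome and low polysome.

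The position of the transcripts along the WT gradient was asked first, as the reference for the KO. Ago2, Ago3, all 3 TNRC6 transcripts and Dicer1 had a higher relative level in the low polysome than in the monosome. By limma, 6 of 10 genes were higher and 0 were lower, against 20.4% and 22.8% of all genes tested, and 0 genes were lower at an unadjusted p under 0.05, by edgeR or by DESeq2. The median log2 change was 1.04 over the 10 genes and -0.00736 over all genes. All 10 have long coding sequences, of 2319 to 5718 nucleotides, and no share for genes of like coding length was taken here. Ago3 changed most, from 3.58, 8.83 and 8.29 CPM in the monosomes of gradients 1 to 3 to 21.7, 27.0 and 45.3 CPM in their low polysomes (log2 change 2.07, SE 0.37, adjusted p = 0.000131). The groups did not overlap, and in the high polysome Ago3 was back at 6.03, 10.0 and 10.1 CPM. Tnrc6c rose by 1.30 (SE 0.18, adjusted p = 6.05e-06), Ago2 by 1.15 (SE 0.12, adjusted p = 1.96e-07), Tnrc6b by 1.07 (SE 0.26, adjusted p = 0.00228), Tnrc6a by 1.06 (SE 0.17, adjusted p = 4.17e-05) and Dicer1 by 1.03 (SE 0.23, adjusted p = 0.00124). The call for Tnrc6b was lost without WT gradient 3 (0.84, adjusted p = 0.0524). Ago1, Ago4, Dgcr8 and Drosha were not called, with changes of 0.07, -0.33, -0.27 and 0.19.

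High polysome abundance over monosome abundance, called translation level in the study, separated the members of single complexes. In WT cells the high polysome level exceeded the monosome level for 4 of 10 genes and fell short of it for 2, against 28.9% and 32.2% of all genes tested. The median log2 change was 0.38 over the 10 genes and -0.0177 over all genes. The Microprocessor pair moved in opposite directions. Dgcr8, the double-stranded RNA binding subunit, went from 66.1, 70.4 and 69.0 CPM in the monosome to 13.1, 17.7 and 18.7 CPM in the high polysome (log2 change -2.06, SE 0.18, adjusted p = 6.85e-09), with no overlap in any gradient. Drosha, the nuclease subunit, went from 49.0, 42.3 and 42.1 to 64.7, 57.5 and 62.2 CPM (0.48, SE 0.15, adjusted p = 0.00825), also with no overlap. Ago2 rose from 237, 248 and 235 to 476, 574 and 571 CPM (1.17, SE 0.12, adjusted p = 3.89e-08). Every high polysome library was thus well above every monosome library.

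Dicer1 was higher in the WT high polysome by 0.76 (SE 0.23, adjusted p = 0.00791) and Tnrc6c by 0.49 (SE 0.18, adjusted p = 0.0231), while the change of Ago4 was -1.17 (SE 0.38, adjusted p = 0.0115). Without WT gradient 3 only Ago2 and Dgcr8 stayed past the threshold, and Dicer1 gave 0.43 (adjusted p = 0.147), Drosha 0.43 (adjusted p = 0.0586), Tnrc6c 0.38 (adjusted p = 0.178) and Ago4 -1.11 (adjusted p = 0.0624). The Ago4 call was also lost without WT gradient 1 (adjusted p = 0.0638) and the Tnrc6c call without WT gradient 2 (adjusted p = 0.0649). Tnrc6b, at 0.51 (SE 0.26, adjusted p = 0.103), was called once fractions of a gradient shared a term (0.56, adjusted p = 0.0292), and also with no filter, the compared groups only, a block by number, edgeR, DESeq2 or without WT gradient 1 (0.53 to 0.74, adjusted p from 0.0267 to 0.0492). Ago1, Ago3 and Tnrc6a were not called, at -0.10, 0.29 and -0.27.

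KO was next compared with WT within each fraction, to ask whether the ribosome-bound transcripts of the miRNA machinery differed without DDX6. Ago2 and Tnrc6c were lower and Tnrc6a and Tnrc6b higher in KO, and these 4 held over all fractions in every fit without 1 gradient. In the monosome 1 of 10 genes was higher and 2 were lower, against 18.6% and 20.1% of all genes tested. In the low polysome 0 were higher and 3 were lower, against 23.4% and 24.3%, with 0 higher at an unadjusted p under 0.05, by edgeR or by DESeq2. In the high polysome 3 were higher and 1 was lower, against 25.3% and 21.1%. Averaged over the 3 fractions, 2 were higher and 4 were lower, against 30.6% and 31.5%. With 10 genes, these counts stand near or below the shares of all genes, with medians over the 10 genes of -0.38, -0.31, 0.09 and -0.13 in the same order, beside -0.0332, -0.0272, -0.00719 and -0.0213 over all genes. The p-values measure the spread between libraries within the 6 groups, which the fit takes as independent, with KO libraries drawn from 2 clones. The average over fractions thus counts the 3 libraries of a gradient separately. With a block by gradient, 2 genes were higher and 3 lower in that average. In bulk fractions fewer transcripts per cell and fewer cells holding the transcript cannot be told apart.

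Ago2 (ENSMUSG00000036698.10, chromosome 15, 73095844 to 73184935, minus strand) stood in the monosome at 237, 248 and 235 CPM in WT gradients and 155, 158 and 186 CPM in KO gradients. Its low polysome levels were 485, 523 and 594 CPM in WT and 378, 416 and 381 CPM in KO, and those of the high polysome 476, 574 and 571 CPM in WT and 400, 431 and 465 CPM in KO. The KO gradients of both clones were below all WT gradients in each fraction. By fraction from light to heavy, the change was -0.54 (SE 0.12), -0.44 (SE 0.12) and -0.32 (SE 0.11), with adjusted p of 0.00137, 0.00337 and 0.0268. Over all fractions it was -0.43 (SE 0.07, adjusted p = 1.15e-05), and it stayed between -0.50 and -0.39 and past the threshold when any 1 gradient was left out. The high polysome call alone was lost in 4 of those 6 fits, with -0.27 without WT gradient 2 (adjusted p = 0.135), -0.28 without WT gradient 3 (adjusted p = 0.0958), -0.27 without KO gradient 1 (adjusted p = 0.0881) and -0.32 without KO gradient 2 (adjusted p = 0.0675). Of the 50-base stretches of Ago2 transcripts, 2.26% also stood in other annotated transcripts, mostly Gm6088. Reads from these may have been dropped or misplaced, but whether the 3′ end reads came from them was not tested.

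The remaining Argonautes bind miRNAs in the same way but lack strong slicing activity. Ago1 (ENSMUSG00000041530.16, chromosome 4, 126435012 to 126468583, minus strand) stood in the low polysome at 72.2, 75.5 and 67.6 CPM in WT and 56.8, 54.8 and 63.3 CPM in KO, which did not overlap, but it was not called there (-0.30, SE 0.14, adjusted p = 0.0817). In the monosome and high polysome its values overlapped between genotypes, with changes of -0.16 and -0.07. Over all fractions Ago1 gave -0.18 (SE 0.08, adjusted p = 0.0636). Ago3 (ENSMUSG00000028842.15, chromosome 4, 126331704 to 126429556, minus strand) stood in the low polysome at 17.9, 20.3 and 20.9 CPM in KO, below the 21.7, 27.0 and 45.3 CPM of WT, and was called lower (-0.60, SE 0.24, adjusted p = 0.0429). That call was lost in 5 of 6 fits without 1 gradient, and without WT gradient 3, its highest library, the change was -0.29 (adjusted p = 0.31), while those without WT gradient 2 or KO gradients 1, 2 or 3 gave -0.66 (adjusted p = 0.0627), -0.53 (0.115), -0.62 (0.0647) and -0.68 (0.0791).

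Over all fractions Ago3 gave -0.47 (SE 0.20, adjusted p = 0.0401), which was lost with a gradient block (-0.47, adjusted p = 0.0515), library size alone (adjusted p = 0.0522) or no filter (adjusted p = 0.0793) and in 5 of 6 fits without 1 gradient, with the value nearest to 0, -0.28 (adjusted p = 0.226), without WT gradient 3. Ago4 (ENSMUSG00000042500.11, chromosome 4, 126489541 to 126533472, minus strand) stood at 7.17, 3.72 and 4.35 CPM in WT and 2.30, 2.30 and 3.46 CPM in KO monosomes. It was called over all fractions (-0.57, SE 0.22, adjusted p = 0.0253), though it passed the filter mainly through WT libraries. This call was lost without WT gradient 1 (-0.54, adjusted p = 0.0545), WT gradient 3 (-0.57, adjusted p = 0.0582) or KO gradient 1 (-0.39, adjusted p = 0.117), and with no filter (-0.54, adjusted p = 0.0553). All 4 Argonautes thus had negative changes in all 3 fractions, of which those of Ago2 alone passed the test in each. In the high polysome Ago1 (-0.07) and Ago3 (-0.22) reached 0.09 and 0.04 in fits without 1 gradient. The signs of Ago4 are not independent of the filter, and the share of all genes negative in all 3 fractions was not taken.

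The TNRC6 genes, whose proteins link Argonaute to the CCR4-NOT deadenylase, moved in opposite directions. Tnrc6a (ENSMUSG00000052707.8, chromosome 7, 123123885 to 123195296, plus strand) stood in the monosome at 60.1, 69.0 and 65.1 CPM in WT and 97.5, 102 and 95.3 CPM in KO (0.60, SE 0.17, adjusted p = 0.00866). In the high polysome it stood at 41.2, 64.9 and 57.5 CPM in WT and 111, 89.8 and 104 CPM in KO (0.91, SE 0.16, adjusted p = 0.000103). The groups were apart in both fractions, and both calls held in all 6 fits without 1 gradient. In the low polysome, with 114, 153 and 142 CPM in WT and 137, 107 and 145 CPM in KO, the groups overlapped and Tnrc6a was not called (-0.08, SE 0.15, adjusted p = 0.715). Its change over all fractions was 0.48 (SE 0.09, adjusted p = 0.000159).

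Tnrc6b (ENSMUSG00000047888.9, chromosome 15, 80711313 to 80941085, plus strand) stood in the high polysome at 13.1, 22 and 21.4 CPM in WT and 36.1, 46.7 and 47.4 CPM in KO. Every KO library was above every WT library, and the log2 change of 1.21 (SE 0.19, adjusted p = 4.3e-05) was the largest of the 10 genes in any fraction and held in all 6 fits without 1 gradient. Tnrc6b overlapped between genotypes in the monosome and low polysome, with changes of 0.24 (adjusted p = 0.522) and 0.15 (adjusted p = 0.547), and rose over all fractions by 0.53 (SE 0.13, adjusted p = 0.00127). Tnrc6c (ENSMUSG00000025571.13, chromosome 11, 117654289 to 117763439, plus strand) stood in the monosome at 30.7, 24.9 and 23.8 CPM in WT and 17.2, 15.7 and 18.3 CPM in KO (-0.60, SE 0.19, adjusted p = 0.0184). In the low polysome it stood at 64.4, 57.3 and 70.3 CPM in WT and 33.3, 41.9 and 38.6 CPM in KO (-0.76, SE 0.15, adjusted p = 0.000307). WT and KO were apart in both fractions and overlapped in the high polysome (-0.02, adjusted p = 0.94). The monosome call was lost without WT gradient 1 (-0.50, adjusted p = 0.093) and without KO gradient 2 (-0.54, adjusted p = 0.0547), while the low polysome call and that over all fractions (-0.46, SE 0.10, adjusted p = 0.000321) held in all 6.

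**Figure D2:**
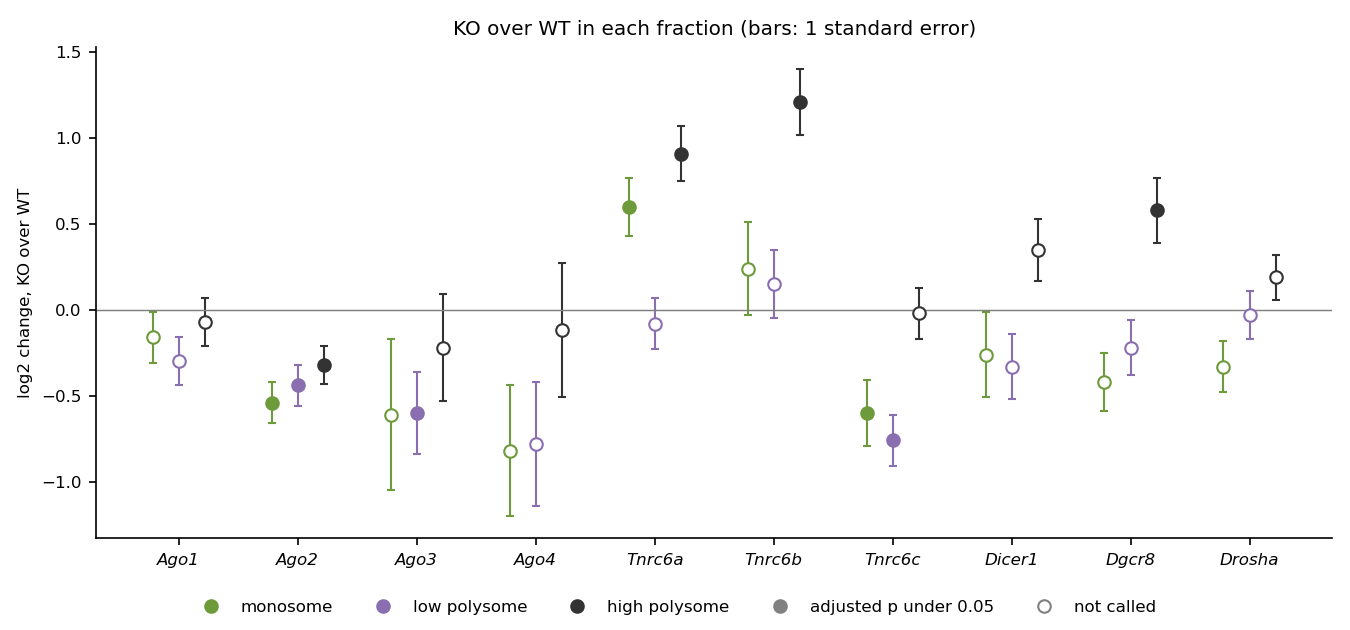
Log2 change of KO over WT for each gene in the monosome (green), low polysome (purple) and high polysome (black), with bars of 1 standard error and filled points where the adjusted p was under 0.05. Ago2 lies below 0 in all 3 fractions with filled points, Tnrc6b is filled in the high polysome at 1.21, and Tnrc6c is filled below 0 in the monosome and low polysome but at -0.02 in the high polysome.

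Of the processing factors, Dgcr8 alone was called within a fraction. Dgcr8 (ENSMUSG00000022718.11, chromosome 16, 18253948 to 18289246, minus strand) stood in the high polysome at 13.1, 17.7 and 18.7 CPM in WT and 25.4, 20.3 and 28.7 CPM in KO (0.58, SE 0.19, adjusted p = 0.0151). The groups did not overlap, but the call was lost without WT gradient 1 (0.37, adjusted p = 0.14) and without KO gradient 3 (0.44, adjusted p = 0.122). In the monosome the order was the opposite, with 66.1, 70.4 and 69.0 CPM in WT and 52.2, 52.3 and 49.8 CPM in KO, again apart. The change of -0.42 (SE 0.17, adjusted p = 0.0512) narrowly missed the threshold. Over all fractions Dgcr8 gave -0.02 (SE 0.10, adjusted p = 0.859). Of its 50-base stretches 8.15%, the highest share of the 10 genes, also stood in another annotated transcript, Gm49776. Its counts may therefore be less certain, which was not tested.

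Drosha (ENSMUSG00000022191.15, chromosome 15, 12824815 to 12935291, plus strand) stood in the monosome at 49.0, 42.3 and 42.1 CPM in WT and 38.0, 38.7 and 28.9 CPM in KO. The values did not overlap, yet the change of -0.33 (SE 0.15, adjusted p = 0.0953) was not called, nor were those of -0.03 in the low and 0.19 in the high polysome. Dicer1 (ENSMUSG00000041415.10, chromosome 12, 104687742 to 104751952, minus strand), the cytoplasmic nuclease, overlapped between genotypes in all 3 fractions. In the high polysome it stood at 21.2, 32.4 and 36.4 CPM in WT and 37.5, 35.2 and 40.9 CPM in KO (0.35, SE 0.18, adjusted p = 0.117), where WT gradient 1 was the lowest library. Without WT gradient 3 the change was 0.51 (adjusted p = 0.024).

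The make-up of each family was then read as shares of its own counts, which no scaling between libraries can move. This measure was added after the levels had been seen. Tnrc6c made up 25.4% ± 3.93 of the TNRC6 counts in WT monosomes and 13.1% ± 1.42 in KO monosomes, 28.2% ± 3.96 and 19.3% ± 3.57 for low polysomes, and 33.8% ± 6.97 and 20% ± 3.89 for high polysomes (SD, n = 3). Its KO shares were below its WT shares in all 3 fractions without overlap. Tnrc6a made up 62.1% ± 3.00 in WT and 75% ± 1.98 in KO monosomes, also without overlap, and Tnrc6b 16.9% ± 2.41 and 23.9% ± 2.86 in the high polysome. In the AGO counts Ago2 held 74.9% ± 0.875 of WT and 70.8% ± 3.01 of KO monosome counts and Ago1 21.4% ± 1.18 and 26.0% ± 2.91, each without overlap. With 3 against 3 gradients the two-sided exact permutation test cannot go below p = 0.1, which each of these 7 differences reached, and the Benjamini-Hochberg value over the 21 shares compared was 0.3. Without KO gradient 2 the monosome differences, KO less WT, went from -4.07 to -2.35 percentage points for Ago2 and from 4.69 to 3.04 for Ago1.

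The sum of AGO counts over the sum of TNRC6 counts was then taken. By group mean, Ago2 made up 70.8% to 87.8% of the AGO counts and Tnrc6a 49.3% to 75% of the TNRC6 counts. The ratio therefore mostly follows these genes, whose levels were given above, while Tnrc6c moved opposite to Tnrc6a. In the monosome the ratio was 3.14, 3.00 and 3.10 in WT and 1.70, 1.71 and 1.95 in KO gradients. In the high polysome it was 5.88, 5.53 and 5.46 in WT and 2.69, 2.82 and 2.79 in KO. The genotypes were far apart in both fractions, while in the low polysome, with 2.89, 2.65 and 2.89 in WT and 2.24, 2.76 and 2.20 in KO, they overlapped through KO gradient 2. The ratio, also added after the levels had been seen, is a description with no test.

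**Figure D3:**
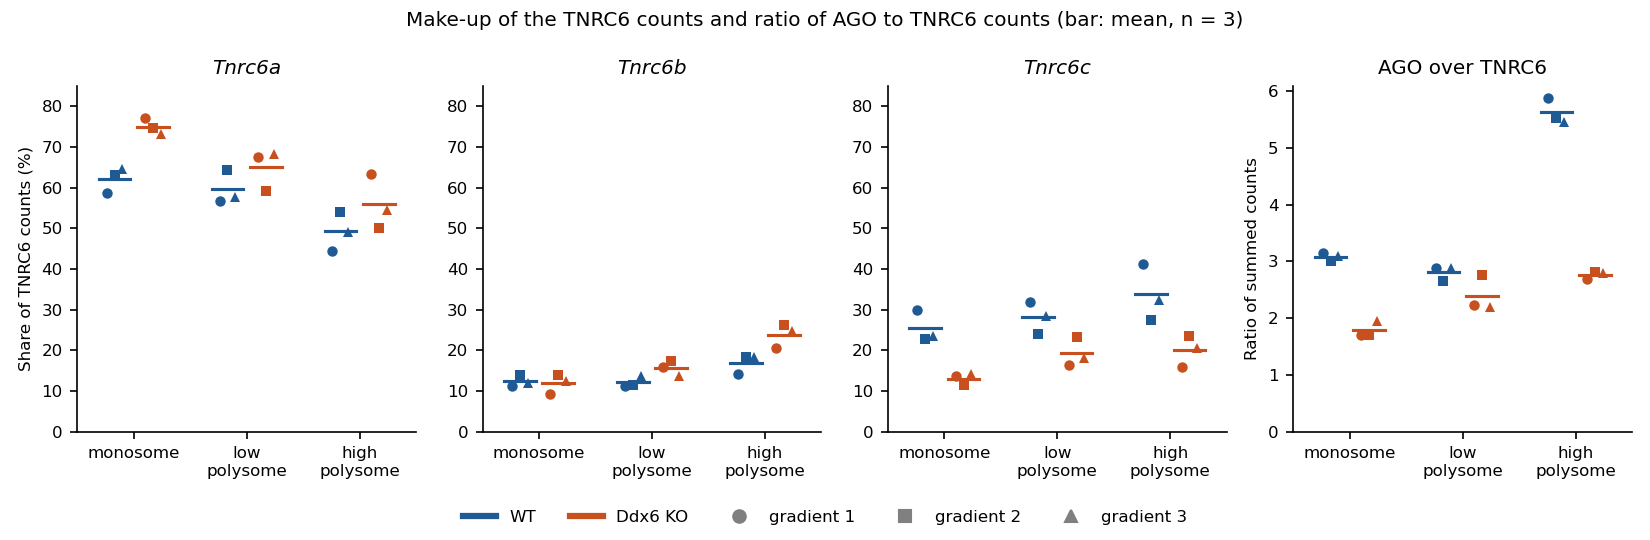
Share of each TNRC6 gene in the TNRC6 counts of a library (percent, left 3 panels, linear axis from 0) and the ratio of summed AGO to summed TNRC6 counts (right panel), by fraction, in WT (blue) and KO (orange), with 1 point per gradient and a bar at the mean of 3. The Tnrc6c shares of KO lie below those of WT in all fractions, and the ratio in the high polysome lies between 5.46 and 5.88 in WT and between 2.69 and 2.82 in KO.

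To ask how DDX6 loss changed translation level, the KO difference between high polysome and monosome was compared with the WT difference by an interaction term. Of the 10 genes 2 passed the test, Dgcr8 and Tnrc6b, both higher. All 10 had a change above 0, beside 51.3% of all genes tested, of any coding length. All 10 have more than 2000 coding nucleotides. The lower quartile of the change was -0.01 over all genes of 2000 to 3000 coding nucleotides and 0.16 over longer ones. Most genes of like length thus also had a change above 0. Ago1 fell below 0 with library size alone (-0.03), no filter (-0.02) or without WT gradient 1 (-0.06). Of all genes tested 10.7% were called higher and 7.09% lower, or 1357 and 901 genes, a split that turned to 936 and 1386 when libraries were scaled by size alone and to 1326 and 1360 by DESeq2. The median change was 0.56 over the 10 genes and 0.0225 over all genes. No member was lower at an unadjusted p under 0.05, by edgeR or by DESeq2. The relative level of Dgcr8 in the high polysome was still below that in the monosome in KO gradients, with log2 ratios of -1.03, -1.34 and -0.78 against -2.29, -1.96 and -1.85 in WT. The ratios did not overlap, and the change was 0.99 (SE 0.25, adjusted p = 0.00992). It was lost without WT gradient 1 (0.79, adjusted p = 0.0647) and without KO gradient 3 (0.84, adjusted p = 0.0905).

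Tnrc6b had log2 ratios of 0.17, 0.51 and 0.81 in WT and 1.59, 1.27 and 1.5 in KO gradients. They did not overlap, and the change of 0.97 (SE 0.33, adjusted p = 0.0488) lay close to the threshold. It lost the call in each of the 6 fits without 1 gradient, where it ranged from 0.73 to 1.16 with adjusted p from 0.0521 to 0.162. Tnrc6c, with 0.31, 0.41 and 0.66 in WT and 0.67, 1.40 and 1.08 in KO, gave 0.58 (SE 0.25, adjusted p = 0.102), and without KO gradient 1, the single gradient of clone 1, 0.77 (adjusted p = 0.0243). Drosha, with 0.40, 0.44 and 0.56 in WT and 0.77, 0.78 and 1.44 in KO, did not overlap and gave 0.53 (SE 0.20, adjusted p = 0.0757). Dicer1, with 0.27, 0.60 and 1.30 in WT and 1.49, 1.13 and 1.41 in KO, overlapped through WT gradient 3, and gave 0.61 (SE 0.31, adjusted p = 0.175), or 0.94 (adjusted p = 0.0424) without it. Tnrc6a, at 0.31 (SE 0.23, adjusted p = 0.368), and the Argonautes Ago1, Ago2, Ago3 and Ago4, at 0.10, 0.21, 0.38 and 0.70, were not called. For Ago2 the ratios were 1, 1.21 and 1.28 in WT and 1.36, 1.44 and 1.32 in KO, so its lower level in KO was seen on both sides of the ratio. The ratios of Ago2, Ago4 and Tnrc6c also did not overlap between genotypes, and the share of all genes without overlap was not taken.

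**Figure D4:**
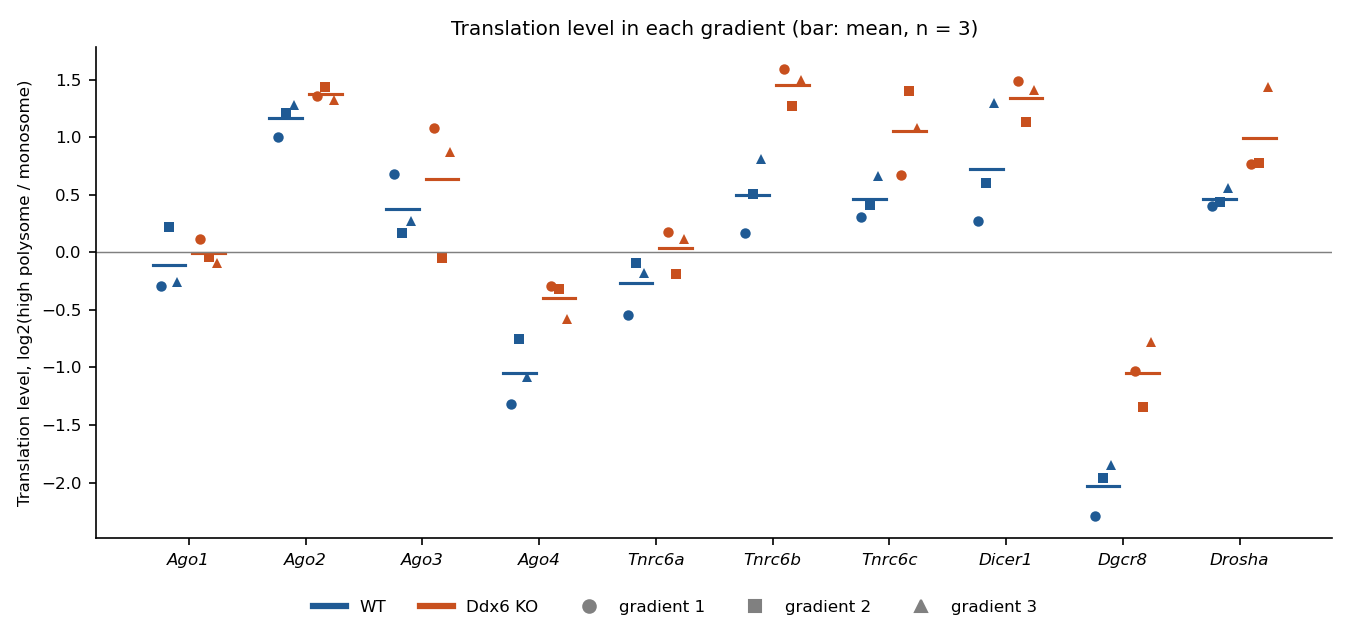
Translation level of each gene, log2 of high polysome over monosome CPM, in the 3 WT (blue) and 3 KO (orange) gradients, with a bar at each mean. Dgcr8 is the lowest gene in both genotypes and higher in KO, and for Tnrc6b the KO gradients at 1.27 to 1.59 lie above the WT gradients at 0.17 to 0.81.

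All 10 genes have long coding sequences, and the KO change in translation level moved with coding length across all genes. The median change was -0.40 over 3810 genes with at most 1000 coding nucleotides, 0.06 over 4507 genes of 1000 to 2000, 0.40 over 1840 genes of 2000 to 3000 and 0.56 over 1616 longer genes. The shortest of the 10 was Dgcr8 with 2319 coding nucleotides, the Argonautes had 2571 to 2583, Drosha 4119, the TNRC6 genes 5430 to 5700 and Dicer1 5718. In the class of 2000 to 3000, where 21.6% of genes were called higher, Dgcr8 was called out of 5 members. In the class above 3000, where 27.6% were called higher, Tnrc6b was called out of 5. With a smooth trend on coding length removed, the median over the 10 genes was 0.01, Dgcr8 gave 0.65 (adjusted p = 0.125) and Tnrc6b 0.40 (adjusted p = 0.505), Ago1, Ago2 and Tnrc6a fell below 0 (-0.28, -0.17 and -0.27), and none of the 10 was called.

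**Figure D5:**
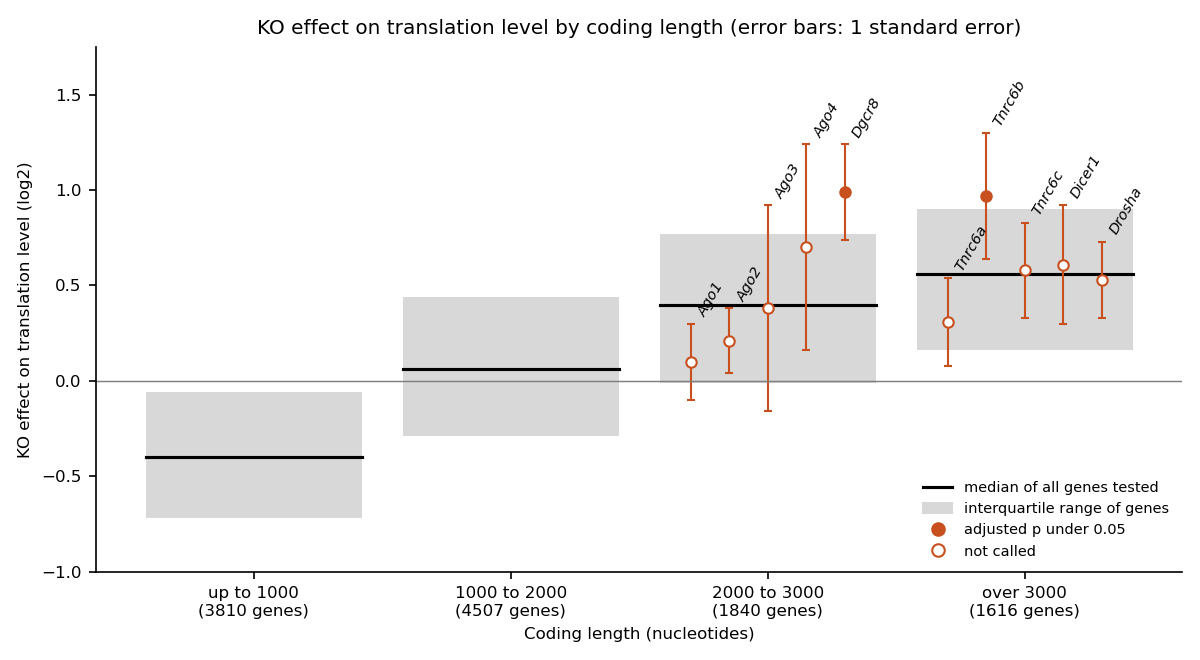
KO effect on translation level (log2) against coding length class, with the median (line) and interquartile range (grey) of all genes tested in the class and the 10 genes as points with bars of 1 standard error, filled where the adjusted p was under 0.05. The class medians go from -0.40 to 0.56, and 8 of the 10 points lie inside the grey range of their class, with Dgcr8 at 0.99 and Tnrc6b at 0.97 above it.

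The same interaction, taken with low instead of high polysomes, gave 0 calls among the 10 genes by limma, against 2.31% higher and 2.39% lower of all genes tested. At an unadjusted p under 0.05 there was 1 gene, Tnrc6a, and edgeR called 0 and DESeq2 1. Tnrc6a had log2 ratios of low polysome over monosome of 0.92, 1.14 and 1.12 in WT and 0.49, 0.06 and 0.60 in KO. The genotypes did not overlap, and the change was -0.67 (SE 0.23, adjusted p = 0.0959). With fractions of a gradient sharing a term it was -0.70 (adjusted p = 0.0311), and by DESeq2 -0.67 (adjusted p = 0.0498). The median over the 10 genes was -0.03, beside 0.0177 over all genes.

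Other genes of the pathway were taken from 3 lists chosen by function, to be read against the 10.7% higher and 7.09% lower of all genes tested for translation level, and the 1.5% to 27.6% called higher by coding length class. Of 17 processing and loading factors 16 were tested, Tarbp2 being below the filter, and for translation level 6 were higher and 1 was lower in KO, with a median of 0.57. The highest was Hsp90ab1, a chaperone used in Argonaute loading (2.00, SE 0.24, adjusted p = 4.93e-05), and the lowest its co-chaperone Ptges3 (-0.73, SE 0.18, adjusted p = 0.00938). Of 12 partners of the silencing complex 3 passed the test, all higher, from Trim71, a ubiquitin ligase of stem cells (0.77, SE 0.16, adjusted p = 0.00346), to the helicase Mov10 (1.19, SE 0.38, adjusted p = 0.0379), with a median of 0.28. Of 22 silencing effectors 5 passed, all higher, from the deadenylase subunit Cnot3 (0.78, SE 0.19, adjusted p = 0.00965) to the poly(A) binding protein Pabpc4 (1.51, SE 0.20, adjusted p = 0.000151), with a median of 0.32. Averaged over fractions, 4 processing factors were higher and 5 lower, 3 partners were higher and 5 lower, and 1 effector was higher and 9 were lower, beside the 30.6% and 31.5% of all genes given above.

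Among the 10 genes, the levels across the 18 libraries were most alike for Ago2 and Dicer1, with Pearson's r of 0.89 over log2 CPM, and for Ago2 and Tnrc6c, with 0.87. Dgcr8 and Drosha, which act as a pair, gave -0.63, and Dgcr8 and Ago2 -0.49. These are descriptions across libraries that share fractions and gradients. Among 9028 genes with a mean of at least 10 CPM, those most like Ago2 over the 18 libraries were Otud4 (0.974), Prr14l (0.973) and Spen (0.962). Those most like Tnrc6a were Ndst1 (0.889), Cdc14b (0.876) and Nsd2 (0.864), and those most like Dicer1 included Kat6a (0.948) and Strn (0.945).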

How the data were processed

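Polysome fractions of WT and Ddx6 KO ESCs were sequenced as QuantSeq 3′ FWD libraries. Per the submitters' processing notes, reads were trimmed with cutadapt 1.14, aligned with STAR 2.5.3a to mm10 and counted with featureCounts 1.5.3. Per the file headers, the authors deposited raw counts per gene, made by strand from uniquely aligned reads over Gencode M14 basic (rRNA removed) plus 92 ERCC spike-ins. No molecular identifiers are mentioned, so PCR copies may be counted. Unique alignment drops reads shared by paralogs or pseudogenes.

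Groups came from the labels. Gencode M21 (GRCm38) gave symbols, coding lengths and 3′ UTRs, and 51274 of 51467 identifiers matched. Genes with at least 3 CPM in at least 3 libraries (12705 genes) were scaled by TMM in edgeR 4.0.16. In R 4.3.3, limma 3.58.1 then fitted voom values of all 18 libraries with a mean for each of 6 groups, with two-sided tests and Benjamini-Hochberg adjustment over all genes, at 0.05. The study's methods also use limma with an interaction term. Ratios of single gradients used log2 CPM with a pseudocount of 0.5. The named genes were the 10 genes, Ddx6, the highest and lowest called gene of each pathway list for translation level, and the 3 genes most like each of Ago2, Tnrc6a and Dicer1, of which 1 is not reported here. The members and lists were chosen with earlier results of these data known.

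Alternatives were other scalings (DESeq2 size factors, library size alone), no or a stricter filter (10 CPM), the compared groups only, blocks by number or gradient, edgeR's quasi-likelihood test, DESeq2 1.42.0, removal of a coding length trend, and leaving out each of the 6 gradients. The 3 fractions of a gradient come from a shared lysate per the labels, yet over 18 pairs of fractions their deviations from group means correlated between -0.18 and 0.48, with 6 pairs over 0.1. The labels do not say whether WT and KO gradients of the same number were run together. No replicate pair agreed within sampling noise, the chi-square per degree of freedom being 3.53 to 29.7.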

Additional observations from a re-analysis of the deposited data

Results flagged for a closer look

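The difference between high polysome and monosome was itself different between KO and WT, by the interaction test in limma, for Tnrc6b (0.97, adjusted p = 0.0488) and for Dgcr8 (0.99, adjusted p = 0.00992). For both genes the ratios of all 3 KO gradients were above those of all 3 WT gradients. The same held for Ago2, Ago4, Tnrc6c and Drosha, which were not called, and the share of all genes so separated was not taken. The calls depend on coding length and on single gradients as given above, and why they do was not tested. Counts were also found for the spike-in sequences, which no comparison here used. They summed to between 28 and 169 counts per library, at most 0.00217% of the gene counts, with the highest total in the low polysome of WT gradient 3.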

How the results depend on the processing

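Across the 10 genes, 8 comparisons and all alternatives, 1127 of the values stayed on their side of the threshold, 51 lost a call, 24 gained a call and 0 of the called ones changed sign. For translation level, the count of called genes went from 2 to 1 with DESeq2 size factors, library size alone, no filter or the compared groups only, where Tnrc6b gave 0.92, 0.86, 0.86 and 0.88 (adjusted p = 0.0623, 0.101, 0.11 and 0.0604), and to 0 with the coding length trend removed. Library size alone moved the median of all genes from 0.0225 to -0.102 and that of the 10 genes from 0.56 to 0.43. Leaving out 1 gradient gave 0 to 2 called genes for translation level, 2 to 3 in the monosome, 2 to 4 in the low polysome, 3 to 4 in the high polysome, 4 to 6 over all fractions, 2 to 6 for WT high polysome over monosome and 5 to 6 for WT low polysome over monosome. For low polysome over monosome the count went from 0 to 1, Tnrc6a, with the replicate block by gradient and with DESeq2. The replicate block by number, which marks no shared batch in the labels, and the block by gradient each left 2 called genes for translation level. Across genotypes, 10 of 27 same-numbered pairs correlated over 0.1 and 15 were closest to their own number, and the block by number called Dgcr8 in the monosome (-0.41, adjusted p = 0.0496). DESeq2 size factors, the stricter filter, the compared groups and DESeq2 also called it (adjusted p from 0.0145 to 0.0423). No filter lost Tnrc6c in the monosome (-0.51, adjusted p = 0.0631), the stricter filter lost Tnrc6c in WT high polysome over monosome (0.40, adjusted p = 0.0547), and DESeq2, its size factors and the stricter filter called Ago1 over all fractions (adjusted p from 0.0243 to 0.0403). Ago3 lost its low polysome call with library size alone, no filter or the compared groups (adjusted p = 0.0553, 0.106 and 0.0874). Why these calls moved was not tested. The mean over fractions uses all 6 groups and has no fit to fewer. Depth limits Ago4, with 8 to 38 counts per library. Shares of family counts without 1 gradient kept their sign for Tnrc6a and Tnrc6c in all fractions, while the sign turned for Tnrc6b in the monosome (-1.5 to 0.854), Ago2 in the low polysome (-0.926 to 0.357), Ago3 in all fractions and Ago4 in the low and high polysome.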
